A study of Mus musculus with 18 samples.

Results

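Vehicle-treated male (XY) fetal lungs were compared between GD18 (18 m) and GD17 (17 m). The 6 arrays of these groups, 3 RNA pools per day, were taken by their labels from the 18 arrays of the series, which also cover vehicle-treated females (17 f and 18 f) and males whose dams received the antiandrogen flutamide (17 flut and 18 flut). All fetuses were BALB/c mice, which are born at about GD19. The dams of the vehicle groups were injected daily under the skin from GD10 until the day before harvest with saline that contained gelatin and DMSO, so every vehicle lung came from an injected dam, and each pool joined the RNA of 3 fetuses of 1 sex from separate litters. Values are log2 of the deposited probe set intensity, differences are 18 m minus 17 m with the standard error (SE) of the limma model, and a gene is called higher or lower where the Benjamini-Hochberg adjusted p over 45037 probe sets is under 0.05. A gene is represented by its probe set of highest mean.

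The mouse lung passes late in gestation from the canalicular to the saccular stage. Distal epithelial progenitors leave the cell cycle and become flat alveolar type I cells, across which gas is exchanged, and cuboidal alveolar type II cells, which make surfactant, the mixture of phospholipid and protein that lowers surface tension. Club and ciliated cells line the conducting airways, a capillary bed is laid against the epithelium, fibroblasts deposit elastin, and the epithelium prepares to turn from secreting to absorbing fluid.

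The labels were checked before the comparison. The Y-linked genes Eif2s3y, Uty and Kdm5d stood at 7.90 to 8.84 in the 6 male pools and at 3.09 to 3.84 in vehicle females. Xist, the female marker of this check, stood at 7.81 to 8.69 in the male pools, above the array medians. In vehicle females Xist stood at 11.33 to 12.51. Of the lung markers, Sftpc was at 13.92 to 14.59, and the mesenchymal transcription factors Foxf1 and Tbx4 were at 10.02 or above. The endothelial marker Pecam1 was at 9.41 to 10.23, with its lowest value in 18 m pool 3. The epithelial transcription factor Nkx2-1 was at 5.77 to 6.50, close to the array medians of 6.37 to 6.39. Genes of other tissues differed between pools. Summed as the mean of the list minus its mean over the 6 pools, the 22 liver genes stood at -1.87, -0.83 and 1.19 in 17 m pools 1 to 3 and at -0.34, -0.72 and 2.57 in 18 m pools 1 to 3. The 17 exocrine pancreas genes stood at 2.18 in 17 m pool 3 and at -0.62 to -0.32 in the other 5 pools, and the 12 heart muscle genes stood at 1.70 in 18 m pool 3 and at -0.52 to -0.10 in the other 5. In 18 m pool 3 the spiked control RNAs had a 5′ minus 3′ value of -2.22, against -0.69 to -0.51 in the other pools, and Gapdh with Actb had -0.60, against -0.12 to -0.07. Pool 3 of each day is therefore left out in an alternative, which is given beside the list counts.

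**Figure D1:**
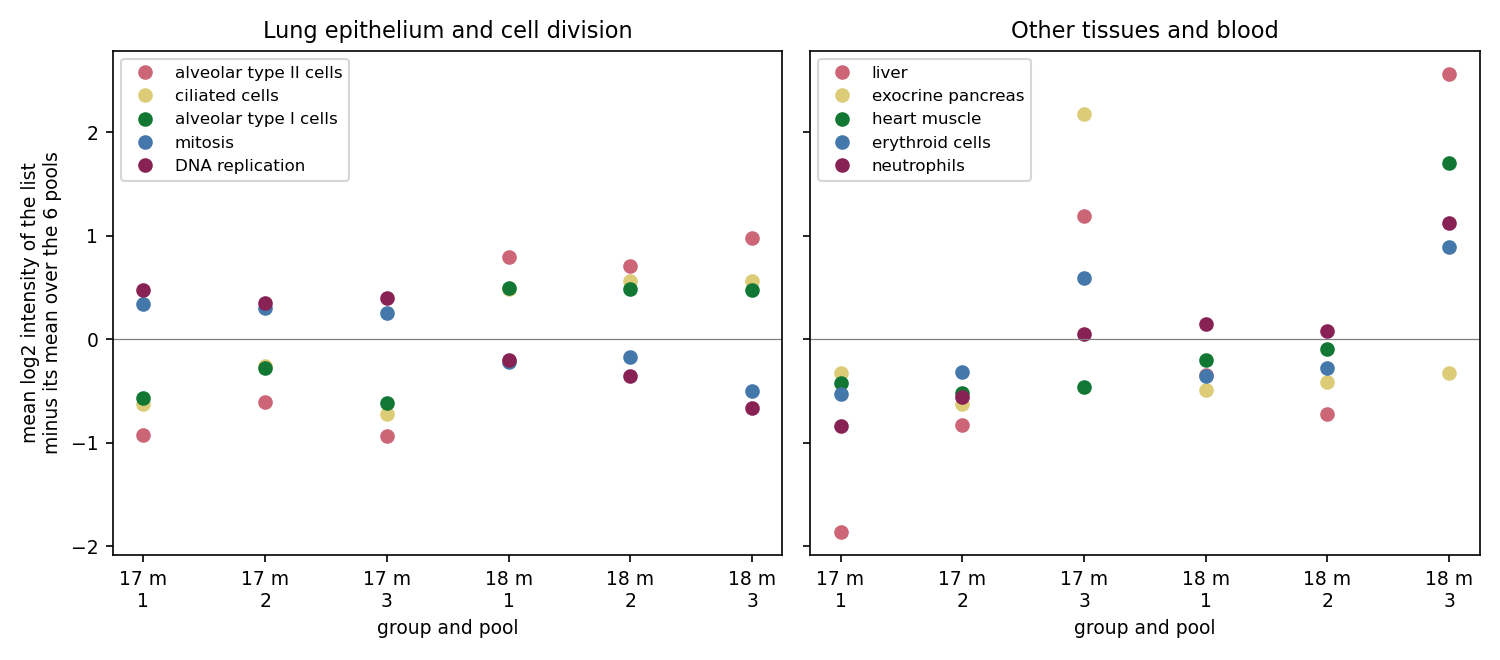
Mean log2 intensity of gene lists in each vehicle male pool, minus the mean of the list over the 6 pools. Left, lists of lung epithelium and cell division, in which the pools of GD17 and GD18 lie on opposite sides of 0. Pool 3 of GD18 is the lowest for mitosis (-0.50, others -0.22 and -0.17) and for DNA replication (-0.66, others -0.20 and -0.36). Right, lists of other tissues and blood, in which pool 3 of GD17 reaches 2.18 for exocrine pancreas and pool 3 of GD18 reaches 2.57 for liver.

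Between GD17 and GD18, 3220 of 18193 genes (17.7%) were called higher and 2263 (12.4%) lower in males, or 30.1% in either direction, and the pools of the 2 days did not overlap in 38.6% of all genes. The differences were mostly small, with a median of 0.43 among genes called higher and -0.39 among genes called lower. Large differences lay on the side of the rises: 324 genes rose and 50 fell by at least 2-fold, and 38 rose and 1 fell by at least 4-fold. Without pool 3 of both days, 249 rose and 23 fell by at least 2-fold. Without pool 3 of both days, 2437 genes (13.4%) were called higher and 1708 (9.39%) lower, of which 2230 and 1581 were called in the same direction with all pools. The median difference of all genes was 0.03. Of the called genes 3259 had other probe sets, and for 1726 another was called in the same direction and for 53 in the opposite direction. Other probe sets are mentioned below for some named genes only. Among the rest, Lama3, Cdh5, Cebpd, Gpam and Stard4 had other probe sets of which none was called. Since the arrays measured whole lung, more cells of a type and more RNA per cell cannot be told apart in any of these results. Nothing in the labels ties a pool number to a shared culture or litter. The p-values rest on the spread between pools within groups, shared over all 6 groups of the series and not taken from the male pools alone. With only the 6 male arrays 2480 genes were called.

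The largest rises were in genes of secretory airway and alveolar epithelium. Scgb1a1, which encodes the main secretory protein of club cells, stood at 6.69, 7.63 and 5.81 in the GD17 pools and at 11.54, 11.45 and 11.94 in the GD18 pools, a 30.6-fold rise (difference 4.93, SE 0.37, adjusted p = 6.7e-07). Sftpd, the collectin surfactant protein D, stood at 7.02, 7.60 and 6.49 and then at 10.95, 10.79 and 11.22, a 15.5-fold rise (difference 3.95, SE 0.28, adjusted p = 4.3e-07). Scgb3a1, another secretoglobin, stood at 6.72, 7.30 and 6.17 and then at 10.65, 10.67 and 10.29 (difference 3.80, SE 0.34). For all 3 genes the GD18 pools lay closer together than the GD17 pools, of which pool 2 was the highest and pool 3 the lowest. The other genes by the naming rule were Retnla, a secreted resistin-like protein (3.71), Slc34a2, the phosphate carrier of type II cells (3.39), Hc, complement component 5 (3.18), Akr1c14, a hydroxysteroid dehydrogenase (3.12), Cxcl15, a chemokine of lung epithelium (2.86), Sftpa1 (2.78) and Inmt, a methyltransferase of lung (2.61). The rule took only genes whose pools did not overlap. Their differences without pool 3 of both days ran from 2.50 to 4.34. Hc, which liver also makes, stood at 5.53, 5.76 and 6.61 at GD17 and at 8.98, 8.72 and 9.73 at GD18, so that pool 3 was the highest on each day.

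All 4 surfactant protein genes rose. Sftpa1, the other collectin, stood at 8.76, 9.61 and 8.46 at GD17 and at 11.84, 11.68 and 11.64 at GD18 (6.86-fold, SE 0.24 on the log2 scale, adjusted p = 1.9e-06). Sftpb, which orders the surfactant film and is required for breathing, stood at 9.84, 10.37 and 9.67 and then at 11.57, 11.56 and 11.49 (2.98-fold, SE 0.15, adjusted p = 2.9e-06). Sftpc, the hydrophobic protein specific to type II cells, stood at 13.92, 14.24 and 13.95 and then at 14.59, 14.57 and 14.58, a 1.45-fold rise (SE 0.07, adjusted p = 7.0e-05). The 3 GD18 values of Sftpc had an SD of 0.01, near the top of the scale of these arrays, and whether its fold was limited there was not tested. A second probe set of Sftpc was not called. The median difference of the 4 genes was 2.18, against 0.03 for all genes, and all 4 were called without pool 3 of both days.

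The promoters of surfactant genes are shown here because the lung epithelial factor NKX2-1 is known to bind several of them, those of mitotic genes because 27 of 31 members fell, and that of Cyp51 as the cholesterol gene of smallest p. Each window was taken from RefSeq (build GRCm38.p6) and holds 250 bases before and 50 after the start site, 5′ to 3′ on the strand of the gene. Capitals mark CTCAAG (NKX2-1), TTTGAA (the cell cycle homology region, CHR), CCAAT and CACNCCA (core of the sterol response element), searched on both strands. Sftpc and Sftpd have no window in the table used.
Sftpa1, chr14:41131538-41131837, plus strand: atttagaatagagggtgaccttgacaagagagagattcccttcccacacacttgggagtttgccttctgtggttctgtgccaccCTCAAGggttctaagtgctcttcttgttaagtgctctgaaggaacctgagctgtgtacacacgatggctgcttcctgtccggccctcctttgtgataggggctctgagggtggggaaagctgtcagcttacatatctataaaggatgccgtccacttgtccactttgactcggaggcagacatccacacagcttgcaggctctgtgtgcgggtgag
Sftpb, chr6:72304360-72304659, plus strand: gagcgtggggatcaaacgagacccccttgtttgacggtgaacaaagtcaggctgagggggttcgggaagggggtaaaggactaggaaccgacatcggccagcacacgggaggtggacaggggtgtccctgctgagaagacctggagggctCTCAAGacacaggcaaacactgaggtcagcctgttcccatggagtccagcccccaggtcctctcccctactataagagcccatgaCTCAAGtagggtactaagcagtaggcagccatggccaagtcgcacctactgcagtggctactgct
Knl1, chr2:119046869-119047168, plus strand: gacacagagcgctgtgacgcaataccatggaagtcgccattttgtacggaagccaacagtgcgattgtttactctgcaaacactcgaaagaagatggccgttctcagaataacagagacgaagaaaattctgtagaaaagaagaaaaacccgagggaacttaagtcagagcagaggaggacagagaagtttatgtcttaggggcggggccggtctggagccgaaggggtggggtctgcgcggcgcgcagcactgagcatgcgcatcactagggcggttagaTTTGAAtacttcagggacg
Bub1b, chr2:118597961-118598260, plus strand: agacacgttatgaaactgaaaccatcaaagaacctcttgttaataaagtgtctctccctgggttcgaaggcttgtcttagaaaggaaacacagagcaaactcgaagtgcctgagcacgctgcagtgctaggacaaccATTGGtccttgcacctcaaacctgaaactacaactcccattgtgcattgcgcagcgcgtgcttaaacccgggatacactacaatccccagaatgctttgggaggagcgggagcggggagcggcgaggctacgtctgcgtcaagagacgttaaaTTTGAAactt
Cyp51, chr5:4104648-4104947, minus strand: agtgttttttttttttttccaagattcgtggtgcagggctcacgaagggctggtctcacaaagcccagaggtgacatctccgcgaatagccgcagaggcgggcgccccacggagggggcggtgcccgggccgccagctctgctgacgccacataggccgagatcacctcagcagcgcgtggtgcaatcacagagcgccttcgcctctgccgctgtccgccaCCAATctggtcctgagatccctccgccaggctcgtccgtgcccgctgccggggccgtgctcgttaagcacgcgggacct

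CTCAAG begins at base 85 of the Sftpa1 window and at bases 151 and 236 of the Sftpb window, and 14.6% of the 14452 promoters of measured genes hold it on either strand. TTTGAA lies downstream of the annotated start site in Knl1 and in Bub1b, beginning at bases 282 and 291. It was found in 23 of the 27 mitosis promoters in the table (85.2%), against 13.3% of the promoters of measured genes. CCAAT was found in 20 of the 27 mitosis promoters (74.1%) and in 14 of 15 cholesterol synthesis promoters (93.3%), against 38.2%. CACNCCA was found in 4 of those 15 (26.7%), against 18.4%. The window of Dhcr7 that was searched holds no match to these letters. These matches describe the sequence, and binding was not measured.

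**Figure D2:**
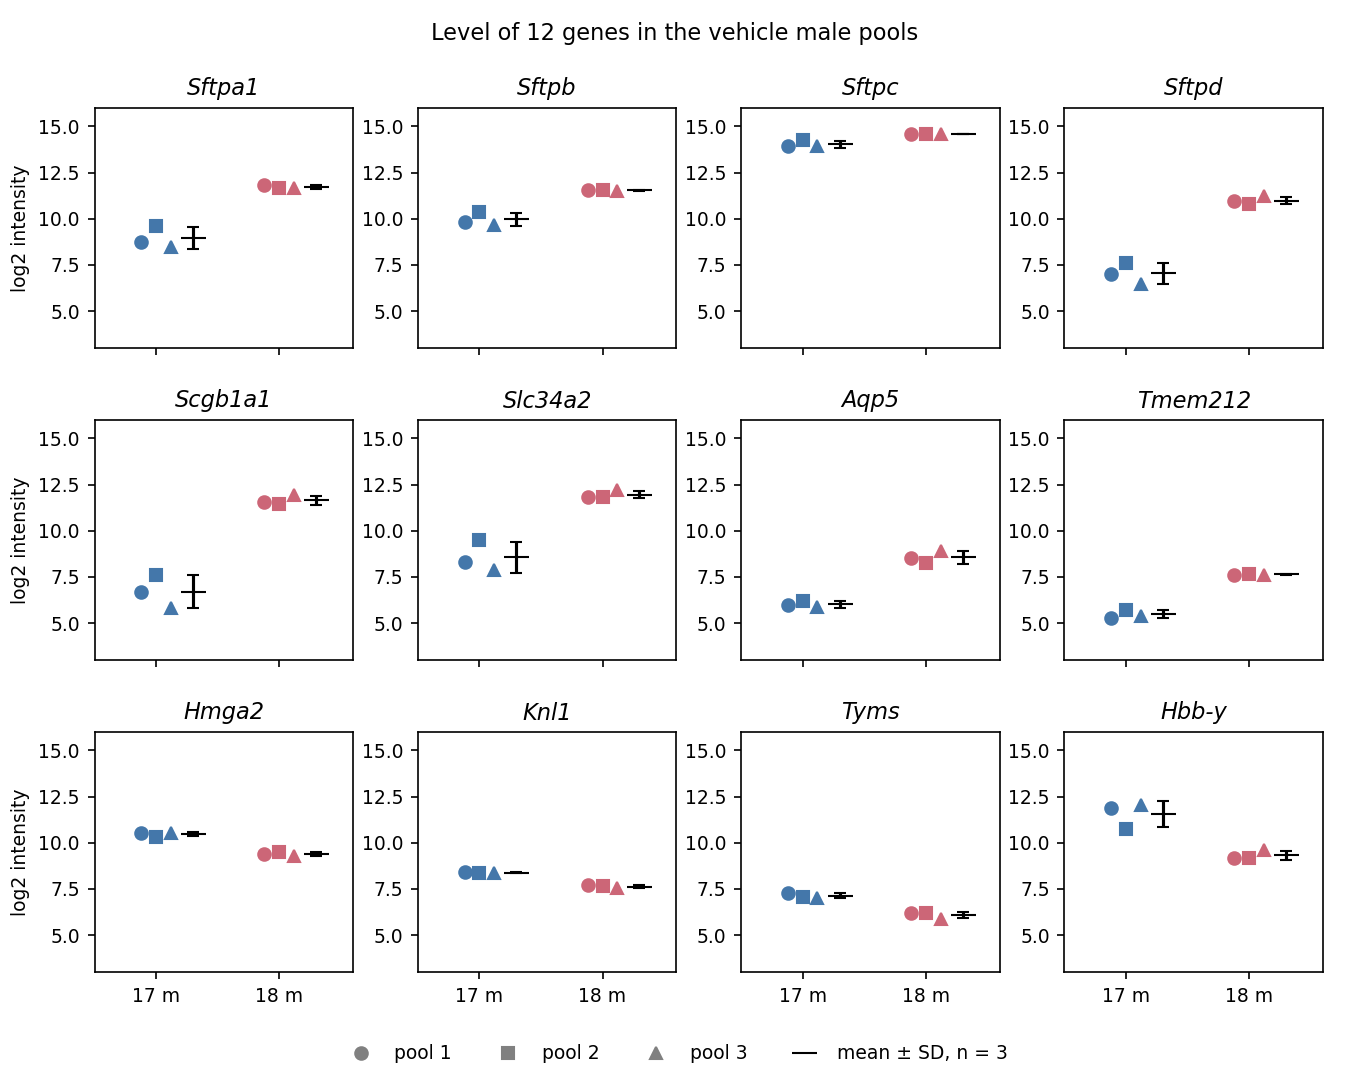
Log2 intensity of 12 genes in the 3 GD17 (17 m) and 3 GD18 (18 m) pools of vehicle males. Symbols mark pools 1 to 3 and bars give the mean ± SD (n = 3). The pools of the days do not overlap in any of these genes, and Sftpc lies at 13.92 to 14.59. Most were named for no overlap or a small p, so the lack of overlap was largely set by the choice. Of all genes, 38.6% had no overlap.

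Genes of alveolar type II cells rose as a group. All 20 measured members were called higher, 19 of them without pool 3 of both days, with a median difference of 1.47 and a range of 0.32 to 3.71. Lyz1, a secreted lysozyme, stood at 9.95, 10.29 and 10.01 at GD17 and at 12.54, 12.26 and 12.76 at GD18 (5.41-fold, SE 0.18, adjusted p = 6.5e-07). Abca3, the transporter that loads phospholipid into lamellar bodies, stood at 9.10, 9.45 and 8.90 and then at 10.49, 10.59 and 10.74 (2.75-fold, SE 0.12, adjusted p = 1.0e-06). Il33, an alarmin cytokine, rose 3.28-fold. Chia1, an acidic chitinase, rose 13.1-fold from 6.55, 7.28 and 6.03 to 10.43, 10.23 and 10.33, and it is also on the stomach list, of which 1 of 10 members was called. Pool 2 was the highest GD17 pool in each of these 4 genes.

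In alveolar type I cells, 17 of 20 genes rose and 1 fell, with a median difference of 0.97. Aqp5, the water channel of the flat epithelium, stood at 6.0, 6.22 and 5.86 at GD17 and at 8.53, 8.24 and 8.92 at GD18 (5.82-fold, SE 0.17, adjusted p = 3.2e-07). Ager, the receptor for advanced glycation end products, rose 4.14-fold from 11.02, 11.62 and 10.77 to 13.17, 13.09 and 13.30. Hopx, a homeodomain-only protein, rose 3.10-fold and Spock2, a matrix proteoglycan, rose 2.58-fold. The fall was in Igfbp2, a binding protein of insulin-like growth factors, from at least 9.66 in each GD17 pool to 8.85, 8.77 and 8.46 (difference -1.15, SE 0.13, adjusted p = 1.7e-05). The same counts of 17 and 1 were obtained without pool 3 of both days.

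The airway lists moved in the same direction. Of 18 ciliated cell genes 17 rose (15 without pool 3 of both days, median 1.03) and of 18 club cell genes 13 rose and 1 fell with and without those pools (median 1.01). Tmem212, a membrane protein of ciliated cells, stood at 5.29, 5.71 and 5.41 and then at 7.63, 7.64 and 7.63, a 4.47-fold rise with an SE of 0.12 and the adjusted p of 6.9e-08. Ccdc153, a protein of cilia, rose 4.09-fold, Rsph4a, a part of the radial spoke, 2.78-fold, and Tppp3, a tubulin-binding protein, 2.63-fold. Among club cell genes, Hp, the haemoglobin-binding protein haptoglobin, stood at 7.89, 8.78 and 7.74 and then at 10.60, 10.57 and 10.66 (5.55-fold, SE 0.20). Cbr2, a carbonyl reductase, rose 4.68-fold and Ces1d, a carboxylesterase, 3.61-fold, while Aldh1a7, an aldehyde dehydrogenase, was the member that fell (-0.29). Of 11 neuroendocrine genes 1 rose and 1 fell, also without pool 3 of both days: Uchl1, a ubiquitin hydrolase, fell 2.0-fold and Resp18, a secretory granule protein, rose by 0.28.

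**Figure D3:**
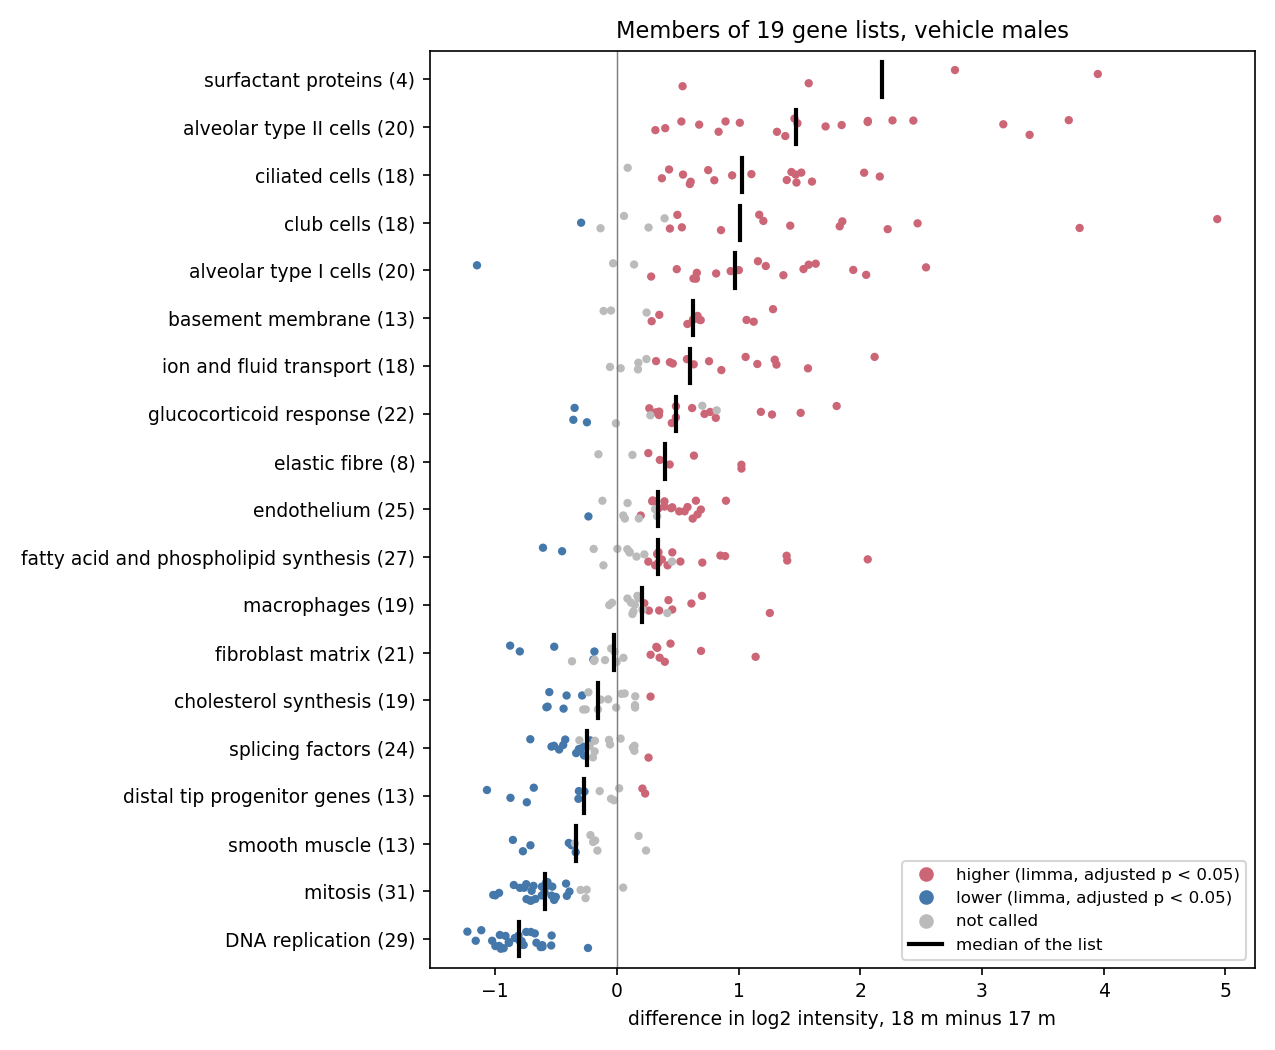
Difference between 18 m and 17 m (log2 intensity) for each measured member of 19 gene lists, with the number of members in brackets and the list median as a black bar. Surfactant proteins have the highest median (2.18) and DNA replication the lowest (-0.81) of the lists drawn.

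Genes of distal tip progenitors were lower at GD18 in 7 of 13 members and higher in 2 (6 and 1 without pool 3 of both days). Hmga2, a chromatin protein of growing embryonic tissue, stood at 10.55, 10.33 and 10.51 and then at 9.40, 9.48 and 9.30, a 2.10-fold fall (SE 0.09, adjusted p = 1.0e-06), and all 3 of its other probe sets were called lower. Mycn, a driver of tip proliferation, fell 1.83-fold, Sox11 fell 1.67-fold and Sox9, a transcription factor of the distal tip, fell 1.61-fold. For Mycn neither of the other 2 probe sets was called. The signals Shh and Fgfr2 were called higher by 0.21 and 0.23 with overlapping pools, and neither was called with the replicate number as a block or with median centring. Of 20 lung epithelial transcription factors 11 rose and 1 fell with a median of 0.28 (8 and 1 with a median of 0.19 without pool 3 of both days). Tfcp2l1, a grainyhead-family factor, stood at 5.90, 5.97 and 5.84 and then at 7.12, 7.15 and 7.61 (2.62-fold, SE 0.14), though neither of its other 2 probe sets was called. The leucine zipper factors Cebpa and Cebpd rose 2.49-fold and 2.16-fold and Klf5 1.59-fold. Sox2, a factor of proximal airway progenitors, fell from 8.97, 8.76 and 9.16 to 8.39, 8.46 and 8.29 (difference -0.58, adjusted p = 0.0015).

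Cell division genes were lower at GD18. All 29 measured DNA replication genes and 27 of 31 mitosis genes were called lower and none higher, with median differences of -0.81 and -0.59. Without pool 3 of both days these counts were 28 and 26. Tyms, thymidylate synthase, stood at 7.28, 7.09 and 7.01 and then at 6.19, 6.21 and 5.90 (2.04-fold lower, SE 0.11, adjusted p = 6.7e-06). Mcm3, a subunit of the replicative helicase, stood at 10.52, 10.40 and 10.56 and then at 9.74, 9.52 and 9.37 (1.94-fold lower, SE 0.11), and all 4 of its other probe sets fell. Ccne2, the cyclin of S phase entry, and Gins2, a helicase cofactor, fell 1.95-fold and 1.85-fold. Of the mitotic genes, Knl1, a scaffold of the kinetochore, stood at 8.39, 8.38 and 8.35 and then at 7.69, 7.66 and 7.54 (1.68-fold lower, SE 0.09, adjusted p = 3.0e-05). Bub1b, a checkpoint kinase, fell 1.67-fold, Aurkb, the kinase of the chromosomal passenger complex, 1.96-fold, and Ccna2, cyclin A2, 1.5-fold. Pool 3 was the lowest GD18 pool in each of the named cell division genes. Across all genes called lower, it was the lowest GD18 pool in 72.0%, and among genes called higher it was the highest in 60.1%. The GD17 pools were also uneven. Pool 2 was the highest GD17 pool in 57.2% of the genes called higher. Among the genes called lower, pool 2 was the lowest GD17 pool in 42.6% and pool 3 in 41.8%.

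The 10 largest falls were smaller than the 10 largest rises. The embryonic globins Hbb-y and Hba-x, expressed in primitive red cells, fell 4.71-fold and 2.58-fold. Hbb-y stood at 11.89, 10.74 and 12.03 and then at 9.15, 9.20 and 9.60 (SE 0.39, adjusted p = 5.2e-04), while the third embryonic globin, Hbb-bh1, differed by 0.20 and was not called. Of 13 erythroid genes only Alas2, which begins haem synthesis, and Slc25a37, an iron carrier, were called, and both were higher. Slc25a37 had overlapping pools and was not called without pool 3 of both days. The erythroid list stood at 0.59 in 17 m pool 3, at 0.89 in 18 m pool 3 and below 0 in the other 4 pools. Enzymes of nucleotide supply and DNA repair were also among the largest falls, with Dctd, a deaminase of deoxycytidylate, at 2.83-fold, Exo1, an exonuclease, at 2.41-fold and Rrm1, the large subunit of ribonucleotide reductase, at 2.34-fold. Rrm1 stood at 10.98, 11.06 and 11.07 and then at 10.53, 10.21 and 8.69, with its lowest value in pool 3 of GD18, and without pool 3 of both days the difference was -0.65. Cldn6, a claudin of embryonic epithelium, fell 2.75-fold from 10.20, 10.13 and 10.25 to 9.01, 8.94 and 8.27. Tmem54, Sbspon and Scara3 fell by 1.34, 1.32 and 1.22 on the log2 scale. For Mtm1, the phosphatase myotubularin (-1.86), another probe set was called lower and another higher, so its direction depends on the probe set.

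Matrix genes split by structure. Of 13 basement membrane genes 10 rose and none fell (9 without pool 3 of both days), with a median of 0.63, or 0.36 without those pools. Lama3, a laminin chain of epithelial basement membrane, stood at 9.11, 9.46 and 8.82 and then at 10.27, 10.36 and 9.95 (2.09-fold, SE 0.13, adjusted p = 2.2e-05). Col4a4, a chain of the late collagen IV network, rose 2.18-fold from 8.59, 8.90 and 8.14 to 9.68, 9.64 and 9.69. Lama5 rose 1.61-fold and Col4a2 rose 1.58-fold. The elastic fibre list had 6 of 8 genes higher and none lower (median 0.39, with 5 higher without pool 3 of both days), led by Eln, tropoelastin, at 11.59, 11.85 and 11.34 and then 12.47, 12.49 and 12.88 (2.03-fold, SE 0.12), and by Ltbp2, a fibrillin-binding protein (2.03-fold). Fibroblast matrix genes went in both directions, with 8 of 21 higher and 5 lower and a median of -0.02. Fn1, fibronectin, rose 2.20-fold, Col6a3 1.62-fold and Postn, periostin, 1.36-fold, while Fbln1, fibulin 1, fell 1.74-fold from 10.77, 10.55 and 10.56 to 9.99, 10.05 and 9.45. Without pool 3 of both days 7 were higher and 2 lower.

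Smooth muscle genes were lower in 6 of 13 members and higher in none (4 lower without pool 3 of both days, median -0.34). Pool 3 was the highest GD18 pool in 12 of the 13. Between the same days 1 member was called lower in females (median -0.02) and 0 in flutamide-treated males (median -0.04). By limma 0 were called for the interaction of day with sex, and 3 had an unadjusted p under 0.05. Synpo2, an actin-bundling protein, stood at 8.72, 8.54 and 8.58 and then at 7.75, 8.02 and 7.75 (1.71-fold lower, SE 0.11), with none of its 3 other probe sets called. Acta2, smooth muscle actin, fell 1.30-fold, and neither of its other 2 probe sets was called. Of 18 mesenchymal genes 8 rose and 1 fell, with and without pool 3 of both days, and their median was 0.24 with and 0.12 without it. Tcf21, a factor of lung fibroblasts, rose 1.48-fold, Fgf18, a growth factor of the alveolar mesenchyme, 1.44-fold, and Fabp4, a fatty acid carrier of lipid-storing and endothelial cells, 2.50-fold, while Pth1r, the receptor through which epithelium signals to lipofibroblasts, fell 1.35-fold. Endothelial genes rose modestly, with 17 of 25 called higher (also 17 without pool 3 of both days, median 0.34). Icam2, an adhesion molecule, stood at 9.59, 9.81 and 9.59 and then at 10.40, 10.25 and 10.21 (1.54-fold, SE 0.08, adjusted p = 5.8e-05). Cldn5, the claudin of endothelial tight junctions, rose 1.58-fold, Cdh5, VE-cadherin, 1.5-fold and Vwf, von Willebrand factor, 1.86-fold. The member called lower, Apln (-0.23), had overlapping pools and was called neither without pool 3 of both days nor with the replicate block. Pecam1, the endothelial marker of the label check, stood at 10.23, 10.09 and 9.41 in the GD18 pools. It was not called by limma (difference 0.31, adjusted p = 0.18), but was called higher without pool 3 of both days (0.55).

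Lipid synthesis divided into branches. Of 27 genes of fatty acid and phospholipid synthesis 16 rose and 2 fell (median 0.33), while of 19 cholesterol synthesis genes 6 fell and 1 rose (median -0.16). Without pool 3 of both days 14 rose and 3 fell in the first list, and 5 fell and 1 rose in the second. Acss2, which makes acetyl-CoA from acetate, stood at 7.0, 7.37 and 6.84 and then at 8.45, 8.35 and 8.59 (2.63-fold, SE 0.12, adjusted p = 2.0e-06). Cds1, which makes the phospholipid precursor CDP-diacylglycerol, rose 2.64-fold and Gpam, the first acyltransferase of glycerolipid synthesis, 1.80-fold. The falls were in the desaturase Fads2 (1.52-fold) and the elongase Elovl6 (-0.45). In the cholesterol branch, Cyp51, a sterol demethylase, stood at 8.26, 8.41 and 8.41 and then at 7.89, 7.89 and 7.59 (1.48-fold lower, SE 0.10, adjusted p = 6.9e-04). Dhcr7, the last reductase of the pathway, fell 1.49-fold and Sqle, squalene epoxidase, 1.47-fold. Stard4, a cholesterol carrier, was the member that rose (1.21-fold).

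Glucocorticoids, which rise in the fetus before birth, are known to mature the lung. Of 22 genes of the glucocorticoid response 15 rose and 3 fell (median 0.49; 14 and 3 without pool 3 of both days). Hsd11b1, which regenerates active glucocorticoid, stood at 8.75, 9.66 and 8.75 and then at 11.04, 10.88 and 10.66 (3.50-fold, SE 0.18, adjusted p = 4.8e-06), while Hsd11b2, which inactivates it, fell from 6.71, 6.54 and 6.72 to 6.32, 6.32 and 6.30 (difference -0.35, adjusted p = 0.0016). Zbtb16, Klf9 and Errfi1, known targets of the receptor, rose 2.85-fold, 2.42-fold and 1.54-fold. Of the 6 other Klf9 probe sets 4 also rose, while the only other probe set of Errfi1 was not called. The other falls were in Cdkn1c, a cell cycle inhibitor (-0.36), and Angptl4 (-0.25). Of 17 immediate early genes 9 rose and 1 fell, with and without pool 3 of both days. Ier3 rose 3.24-fold, Zfp36, which destabilizes mRNA, 1.99-fold and Klf4 1.94-fold, while Myc, a growth-promoting factor, fell 1.57-fold from 8.33, 8.21 and 8.61 to 7.82, 7.75 and 7.62.

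Genes of ion and fluid transport rose in 13 of 18 members, with and without pool 3 of both days, and none fell (median 0.60). Kcnj15, a potassium channel, stood at 5.90, 6.17 and 5.76 and then at 8.10, 8.07 and 8.01 (4.34-fold, SE 0.15, adjusted p = 4.0e-07). Aqp1, the water channel of capillaries, rose 2.97-fold, Atp1b1, a subunit of the sodium pump, 2.08-fold and Nedd4l, a ubiquitin ligase of sodium channels, 2.23-fold. The 3 subunits of the epithelial sodium channel, named after their values were seen, all rose: Scnn1a from 7.19, 7.36 and 7.21 to 8.32, 8.36 and 9.0, Scnn1g by 1.30 and Scnn1b by 0.76. Of 15 tight junction genes 6 rose, led by F11r, an adhesion molecule of junctions (1.5-fold), and 3 fell, the claudins Cldn6, Cldn8 and Cldn4. Without pool 3 of both days 7 rose and 1 fell, and Cldn8 and Cldn4 were not called.

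Blood and defence genes rose in part. Of 19 macrophage genes 8 rose and none fell (7 without pool 3 of both days, median 0.21). Clec7a, a receptor for fungal glucan, stood at 6.59, 6.44 and 6.24 and then at 7.65, 7.67 and 7.72 (2.39-fold, SE 0.11, adjusted p = 2.3e-06), and Ctss, a lysosomal protease, Tyrobp, an adaptor of myeloid receptors, and Csf1r, the receptor for macrophage growth factor, rose 1.62-fold, 1.53-fold and 1.27-fold. Of 13 neutrophil genes 6 rose (5 without pool 3 of both days), but the list stood at 0.05 and 1.12 in pool 3 of GD17 and of GD18, above both other pools of its day. Lcn2, an iron-withholding protein, was at 5.78, 5.47 and 5.79 and then at 7.22, 7.09 and 8.23 (3.57-fold), and Mmp8, a collagenase, rose 1.6-fold. S100a8 and Camp rose by 1.64 and 1.37, with SEs of 0.48 and 0.38. Of 15 genes of secreted innate defence 6 rose and none fell, with and without pool 3 of both days. Cp, the ferroxidase caeruloplasmin, stood at 6.95, 7.32 and 7.16 and then at 9.18, 9.30 and 10.41 (5.61-fold), and all 7 of its other probe sets rose. Lbp, which binds lipopolysaccharide, rose 1.77-fold and Wfdc2 1.47-fold. Cp and Lbp are also made by liver, whose 22 listed genes had a median difference of 1.00 (0.91 without pool 3 of both days) with a wide spread between pools, 0 calls by limma and 0 at an unadjusted p under 0.05. The part of liver, blood or heart cells in these values was not tested. Of 12 heart muscle genes Myh7 and Ryr2 were called higher, and neither was called without pool 3 of both days. Myh7 stood at 8.66, 8.78 and 8.29 and then at 9.64, 9.73 and 12.53.

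Lists of growth regulators had calls in both directions, to be read against the 30.1% of all genes called. Of 9 genes of the insulin-like growth factor axis 3 rose and 1 fell (2 and 0 without pool 3 of both days). Igfbp2, which fell among the type I cell genes (difference -1.15), was not on this list and is not in these counts. The binding proteins Igfbp6 and Igfbp7 rose 4.76-fold and 2.15-fold, Igfbp6 from 7.28, 7.87 and 7.33 to 9.86, 9.68 and 9.69. Igf1 differed by -0.50 and the receptor Igf1r by 0.66, and neither was called without pool 3 of both days. Of 20 imprinted growth genes 5 fell and 2 rose (4 and 1 without pool 3 of both days). The amino acid carrier Slc38a4 fell 1.63-fold and Ndn, necdin, 1.34-fold, while the noncoding RNA Meg3 rose 1.49-fold. Of 25 hedgehog, FGF, BMP and Wnt genes 4 rose and 5 fell, with and without pool 3 of both days. Nkd1, a Wnt antagonist, rose 2.23-fold from 8.5, 8.45 and 8.12 to 9.43, 9.46 and 9.65 and Hhip, a hedgehog antagonist, rose 1.52-fold, while Sfrp2, a secreted Wnt inhibitor, and Gli3, a hedgehog effector, fell 1.84-fold and 1.39-fold. Of 18 antioxidant genes 4 rose and 3 fell (5 and 2 without pool 3 of both days), with Gpx3, a secreted glutathione peroxidase, 1.98-fold higher, Gpx4 1.4-fold higher and Txnrd1, thioredoxin reductase, 1.48-fold lower. Splicing factors fell in 12 of 24 members and rose in 1 (median -0.25; 12 and 0 with the replicate block, 10 and 0 without pool 3 of both days). Srsf2 stood at 12.58, 12.35 and 12.41 and then at 11.82, 11.89 and 11.49 (1.64-fold lower), and Tra2b, Hnrnpd and Srsf1 fell 1.43-fold, 1.39-fold and 1.36-fold. None of the 16 ribosomal protein genes was called by limma, 0 had an unadjusted p under 0.05, and their differences ran from -0.06 to 0.20.

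The same interval was compared in females and in flutamide-treated males, which share no arrays with the vehicle males. The comparisons do share the SE of each probe set, which comes from all 6 groups, so their calls are not independent. In females 3121 genes (17.2%) were called higher and 4089 (22.5%) lower between the days. Of the genes called in males, 2333 of the 3220 higher and 1976 of the 2263 lower were called in the same direction in females, and 19 and 34 in the opposite direction. Across the 18193 genes, which are not independent, the differences in males and females had a Pearson r of 0.755. The 4 surfactant proteins rose in females with a median of 2.31 and in flutamide-treated males with a median of 1.84, and no surfactant, type I, type II, club or ciliated cell gene was called for an interaction of day with sex by limma, while 8 of these 80 genes had an unadjusted p under 0.05. For that interaction 2944 probe sets (6.54%) and 868 genes (4.77%) were called. Of the probe sets, 39.5% had the more positive change in males, and this share was 53.7% with median centring. The split of the genes was the reverse, with 707 more positive and 161 more negative in males. Of the 2944 probe sets, 1166 had several gene symbols or none. The DNA replication list fell with a median of -1.17 in females, and 5 of its 29 genes were called for the interaction with a smaller fall in males. Cholesterol synthesis had 16 of 19 genes lower in females (median -0.58), and 7 were called for the interaction. The elastic fibre list rose by 0.89 in females, and 2 of 8 genes were called with a smaller rise in males. At GD17 exocrine pancreas genes were high in male pool 3 and also in female pools 2 and 3, and without these and 18 m pool 3 the interaction called 1859 probe sets. Liver genes had a median difference between days of 1.00 in males and -2.13 in females, and erythroid genes of 0.18 and -1.13, with 18 of 22 and 10 of 13 at an unadjusted interaction p under 0.05. The share of all genes at that unadjusted p was not computed, so the unadjusted counts of these lists have no background. The part of these cells in the interaction was not tested. For the interaction of day with flutamide 31 genes (0.170%) were called.

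**Figure D4:**
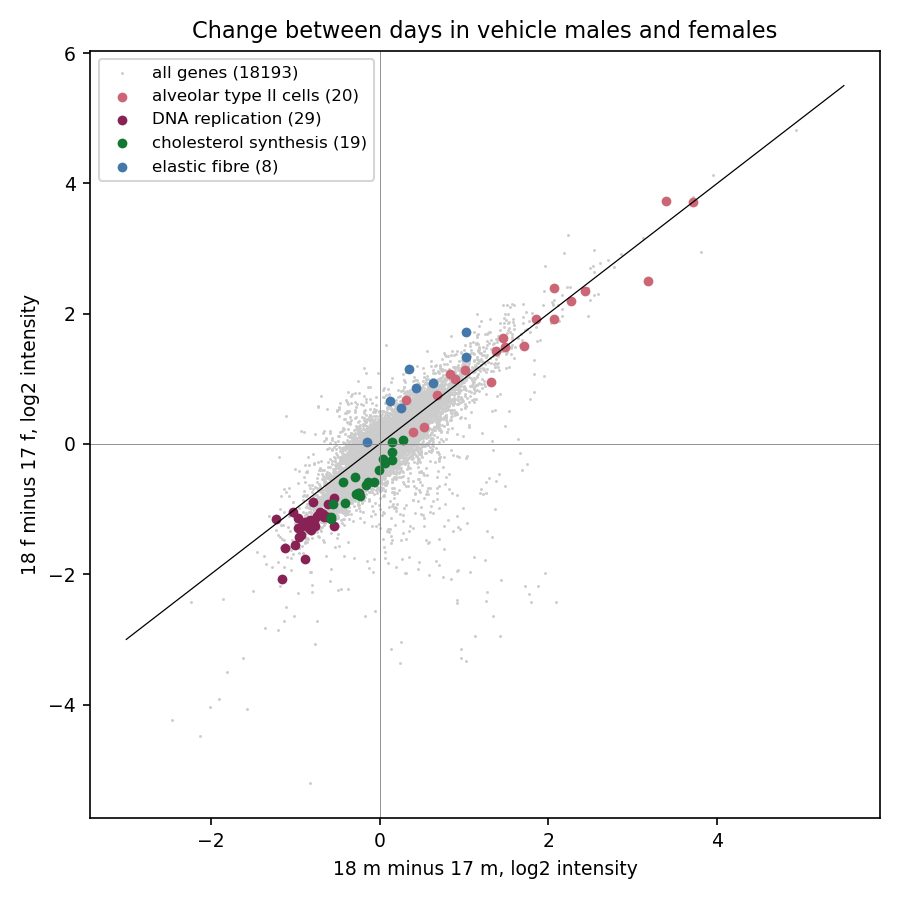
Difference between GD18 and GD17 in vehicle males (horizontal) and vehicle females (vertical), in log2 intensity, for 18193 genes, with 4 lists coloured and the line of equal change. Type II cell genes lie along the line, DNA replication genes (medians -0.81 and -1.17) mostly below it and elastic fibre genes (0.39 and 0.89) above it.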

How the data were processed

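Lung RNA was hybridized to Affymetrix MOE430 2.0 arrays, and the authors deposited 1 RMA intensity per probe set and pool (background subtraction, normalization and summary) on a linear scale, of which log2 was taken. limma is named, with no version, in the processing notes of the submitters. The 64 control probe sets were left out of 45101. The platform annotation gave 1 symbol to 34945 probe sets, several to 932 and none to 9160, and genes were named from the first kind only. Means of the 6 groups were fitted to all 18 arrays with limma 3.58.1 in R 4.3.3 (12 residual degrees of freedom, eBayes), with Benjamini-Hochberg adjustment over 45037 probe sets. The number of arrays limits the precision. The members and gene lists were chosen with earlier results of these data known, and no test was run on a list. Of 798 genes on 47 lists, counts are over those measured.

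Named genes were the 10 largest rises and falls among genes called with and without pool 3 and with no overlap (genes of other-tissue lists left out), the surfactant proteins, up to 4 genes of smallest p per list, and the 5 genes called in males with the smallest interaction p. Other members were named after their values were seen, where a count of 5 or fewer held them or where a list or pool check turned on them. Promoters were those of the 2 called genes of smallest p in each of 3 lists that had a window, and the first listed window was searched.

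Pools with the same number deviated together from their group means (correlations 0.165, 0.313 and 0.385, from the data and not the labels), so the replicate number was added as a block in an alternative. Other alternatives changed the threshold, normalization, level filter, array weights, variance prior, arrays in the fit and the unit of adjustment, and left out pools. The fit was tested on simulated data: of log2 differences of 0.5, 1 and 2 placed in 73, 63 and 64 of 45037 probe sets, 53, 58 and 63 were called, with 11 false calls. The simulated noise was independent between arrays. In the data pools of the same number deviated together and 25.0% of probe sets were called. The simulation therefore does not give the number of false calls in the data.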

Additional observations from a re-analysis of the deposited data

Results flagged for a closer look

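Several genes changed between GD17 and GD18 by a different amount in vehicle males and females, by the interaction of day with sex in limma (difference in males minus difference in females). In all, 2944 probe sets were called. Gm4432 (-1.01), Rbm6 (-0.89), Zbed6 (-1.10), Zcchc7 (-0.97) and Itch (-1.07) had the smallest interaction p among genes called in males. They fell in males by 0.33 to 0.47 on the log2 scale and rose in females by 0.50 to 0.77, with adjusted p for the interaction of 6.7e-05 to 9.3e-05. Gm4432 stood at 9.04, 9.05 and 8.85 at GD17 and at 8.53, 8.44 and 8.55 at GD18 in males. Gm4432 and Rbm6 also differed from flutamide-treated males in the same interval, by -0.78 and -0.52. The other probe sets of Rbm6 and Zbed6 were not called between days in males, while 1 of 2 for Zcchc7 and 1 of 3 for Itch fell.

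Eln (-0.69), Col6a3 (-0.43), Postn (-0.32) and Hhip (-0.66) rose less in males than in females. By list, 2 of 8 elastic fibre, 7 of 21 fibroblast matrix and 0 of 13 basement membrane genes were called for the interaction by limma, against 4.77% of all genes. Of the 13 basement membrane genes 6 had an unadjusted p under 0.05, a threshold at which the share of all genes was not computed. Falls were smaller in males for Ccna2 (0.49), Cyp51 (0.55), Dhcr7 (0.57), Elovl6 (0.77) and Pth1r (0.40). Camp rose in males and differed by -0.58 in females (1.95), and Hbb-bh1 differed by 0.20 in males and fell by 0.39 in females (0.59). The adjusted p of these 11 genes lay between 0.018 and 0.045.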

How the results depend on the processing

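The pools were 3 per group, and all counts depend on the threshold. With an adjusted p under 0.01, 6891 probe sets and 3582 genes were called between days in males and 1173 probe sets for the interaction with sex. With only the 6 male arrays 4764 probe sets and 2480 genes were called, and with only the 12 vehicle arrays the interaction called 1836. The interaction also moved to 5837 with array weights, to 4806 without pool 3 of the males of both days, to 4707 without 18 m pool 3, to 1834 without 17 f pool 3, to 1813 without 18 f pool 1, and to 1859 in a setting chosen after seeing the data (without 18 m pool 3 and the 3 GD17 pools high in pancreas genes). Leaving out 1 pool at a time gave 8919 to 11777 probe sets and 4457 to 5557 genes in males, and 1813 to 4707 probe sets for the interaction. The replicate block gave 10862 probe sets, 5296 genes and 2629 interaction probe sets, and of 152 named genes it ended the call of 3. Of these 152 genes (147 with the level filter, which left out the probe sets of the others) none turned direction under the alternatives run. In this set 129 kept their side of the threshold under each alternative that gave them a value. With only the 6 male arrays 22 lost the call. Many of these genes were named for a large difference, a small p or no overlap in the same data. Their kept directions and calls were therefore in large part set by the choice. The median of the fibroblast matrix list was 0.01 with cyclic loess. The causes were not tested, except that fewer arrays entered some of these fits.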
